A study of Mus musculus with 24 samples.

Results

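Group 2 innate lymphoid cells (ILC2) of the colon were compared between mice injected with the neuropeptide neuromedin U (NMU) and mice injected with phosphate-buffered saline (PBS). The 8 libraries were those that the labels give as sorted ILC2, 4 with NMU (mice 1 to 4) and 4 with PBS (mice 5 to 8), of 24 libraries in all. The other libraries, 8 of NMUR1+ and 8 of NMUR1- CD4 T cells, came from the same 8 mice and served here only to ask whether a difference seen in ILC2 also differed from that in T cells. All mice of both groups carried the Nmur1iCre-eGFP allele, in which the promoter of the NMU receptor gene drives a Cre recombinase and a green reporter. All received 3% dextran sulfate sodium (DSS), a polymer toxic to colon epithelium, over 5 days, followed by 3 days on water, and the injections were intraperitoneal and given every other day over that whole period. The comparison is therefore NMU against vehicle in an injured, recovering colon, and no group without DSS was used here. The sort took CD45+ lineage-negative CD90.2+ CD127+ KLRG1+ cells with eGFP from the lamina propria, so ILC2 without the reporter or without KLRG1 lie outside these data. The labels name 4 mice per treatment while the series' design text counts 3, and the mice were taken as the labels number them.

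ILC2 are tissue lymphocytes without antigen receptors that answer to epithelial alarm signals, neuropeptides and lipids. Intestinal ILC2 express NMUR1, a G protein-coupled receptor that signals through Gq and calcium, and enteric neurons make its ligand NMU. Activated ILC2 are known for interleukin 5 and interleukin 13, which act on eosinophils and on goblet and muscle cells, and for amphiregulin, a growth factor for injured epithelium.

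The sorted cells carried the RNA of ILC2. Expression is given in CPM, the counts of a gene scaled to the library's counts in all genes tested. Over the 8 libraries, Gata3, the transcription factor that defines the lineage, ran from 4393 to 6688 CPM with a median of 6083. Klrg1, a surface receptor of the sort gate, ran from 723 to 1760.0 CPM, and Nmur1 from 173 to 341 CPM. The alarmin receptor gene Il1rl1 was between 254 and 508 CPM and the CD127 gene Il7r between 549 and 1040.0 CPM. Of the T cell genes fixed as markers, Cd3e was at 0 to 12.5, Cd4 at 0 to 13.9 and Cd5 at 0 to 3.21 CPM. Other genes of the T cell receptor complex and its signalling were higher, with Cd3g at 17.3 to 127 CPM. Trbc1 and Trbc2, the constant segments of the T cell receptor β chain, averaged 285 and 204 CPM with NMU and 196 and 129 CPM with PBS, and the adaptor Lat averaged 272 and 311 CPM. Nmur1 itself did not pass the test between treatments (173, 206, 268 and 341 CPM in NMU mice 1 to 4 and 299, 232, 248 and 175 CPM in PBS mice 5 to 8, edgeR adjusted p = 0.96), and the groups overlapped. The eGFP transcript was not analysed here.

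Total counts per ILC2 library ran from 8485266 to 13064665, and the 2 groups overlapped. The library of NMU mouse 1 stood apart from the other 7, at 171.4 on the first principal component (34.7% of the variance), where the other NMU libraries lay between -7.23 and 6.30 and the PBS libraries between -50.6 and -34.5. Immunoglobulin RNA, a product of plasma cells, took 0.0241, 0.397, 0.867 and 0.314% of counts in NMU mice 1 to 4 and 7.93, 0.665, 1.58 and 4.49% in PBS mice 5 to 8. The group means were 0.401 ± 0.35% and 3.67 ± 3.28% (SD, n = 4 each, two-sided exact permutation test, p = 0.0571, where 0.0286 is the smallest p that the design allows). Genes with a count numbered 10778 to 12637 with NMU and 12635 to 13736 with PBS (exact permutation p = 0.0571). The cells were sorted in bulk, so fewer cells of a kind and less RNA per cell cannot be told apart. With amplified cDNA and no molecular identifiers, counts are not independent molecules.

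In ILC2, 74 of 11205 genes passed the test (edgeR quasi-likelihood, Benjamini-Hochberg adjusted p below 0.05), which is 0.66% of the genes tested. Of these, 45 (0.402%) were higher with NMU and 29 (0.259%) were lower. The genes that rose included surface receptors and ligands of activated lymphocytes, 2 transcription factors (Irf4 and Tox), a prohormone convertase and vesicle proteins. Those that fell included an AP-1 subunit, a Notch target, 2 members of the clock list and a heat shock cochaperone. In all 74 genes the 4 NMU libraries did not overlap the 4 PBS libraries, a pattern seen in 9.46% of all genes tested. Passing the test with 4 libraries per group itself favours such a separation, so it is no separate support for these genes. With the immunoglobulin share as a covariate no gene passed (875 had an unadjusted p below 0.05), and all 74 kept their direction. Modest differences were common among the genes called, with 15 of the genes that rose and 13 of those that fell changing by less than 2-fold.

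**Figure D1:**
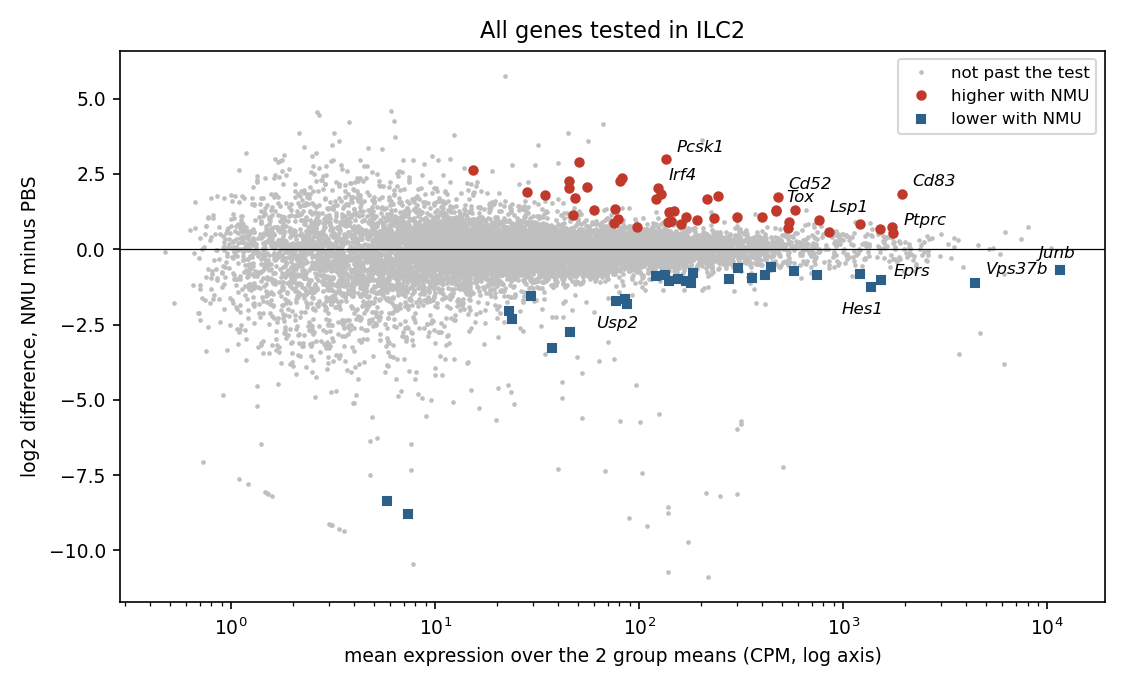
Log2 difference between NMU and PBS (vertical axis) against mean expression in CPM (horizontal axis, log scale) for the 11205 genes tested in ILC2. Red circles are the 45 genes that passed the test and were higher with NMU, blue squares the 29 that were lower, and the genes past the test lie mostly within 3 log2 units of 0.

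How far each call rested on single mice was read from 8 further fits, each without 1 mouse. The number of genes past the test was 63 without NMU mouse 1, the library that stood apart, and 45, 12 and 15 without NMU mice 2, 3 and 4. It was 12, 39, 20 and 12 without PBS mice 5, 6, 7 and 8. No gene of the 74 changed direction in any of these fits. Since the groups of all 74 were apart, leaving out 1 mouse could hardly reverse a direction, so this is no support. Only 10 genes (0.0892% of those tested) passed in all 8, 8 higher and 2 lower, and 16 of the 74 passed in none. The number of these fits in which a gene passed is given below as "of 8".

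The 10 genes that passed in every fit are described first. Pcsk1 encodes a prohormone convertase, the protease that cleaves neuropeptide and hormone precursors in secretory granules (gene 18548, chromosome 13, 75089420 to 75134861, GRCm38.p6). It was at 246, 122, 322 and 276 CPM in NMU mice 1 to 4 and 24.1, 38.3, 31.3 and 26.4 CPM in PBS mice 5 to 8. The lowest NMU library, that of mouse 2, was more than 3 times the highest PBS library. The means were 241 ± 85.6 against 30.0 ± 6.28 CPM (SD, n = 4 per group; log2 difference 3.01, SE 0.30, edgeR adjusted p = 0.00171). The promoter of Pcsk1 is shown because the gene had the largest log2 difference among the 10 and because, of the 5 among them with a promoter window in the RefSeq table (Irf4, Stx11, Serpinb6a, Pcsk1 and Usp2), only its window held any of the motifs searched. The start used is that of the RefSeq promoter table, which lies inside the span of the gene given above, after its first base. The 250 bases before this start lie at chr13:75089607-75089856 on the plus strand (GRCm38.p6), with a cAMP response element (TGACGTCA) in capitals whose first base is 78 before the start.
Pcsk1: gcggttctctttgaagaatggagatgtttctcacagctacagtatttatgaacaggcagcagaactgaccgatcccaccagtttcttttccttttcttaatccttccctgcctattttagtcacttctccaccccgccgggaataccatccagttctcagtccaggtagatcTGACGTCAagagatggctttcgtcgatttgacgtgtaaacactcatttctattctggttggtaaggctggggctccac

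Among the 10, 2 were transcription factors of activated lymphocytes. Irf4, which is induced by antigen receptor and cytokine signals and is needed for effector programmes (gene 16364, chromosome 13, 30749233 to 30766981), was at 194, 192, 175 and 234 CPM in NMU mice 1 to 4 and 49.4, 43.7, 63.3 and 39.0 CPM in PBS mice 5 to 8. The groups were far apart, with PBS mouse 7 the highest of the PBS libraries (log2 difference 2.02, SE 0.19, edgeR adjusted p = 0.00156). Tox, an HMG-box factor required for the development of innate lymphoid cells (gene 252838, chromosome 4, 6686353 to 6991557), was at 769, 601, 644 and 647 CPM in NMU mice 1 to 4 and 261, 269.8, 325 and 225 CPM in PBS mice 5 to 8. Its groups were separated by a wide margin (log2 difference 1.30, SE 0.14, edgeR adjusted p = 0.0034). Over the list of 33 tested transcription factors of activated lymphocytes, these 2 passed, both higher, where 0.402% of all genes rose. The median log2 difference of the list was 0.17 beside -0.03 over all genes. The defining factor Gata3 was at 6688, 4393, 5712 and 5316 CPM in NMU mice 1 to 4 and 6308, 6088, 6077 and 6118 CPM in PBS mice 5 to 8 and did not pass (edgeR adjusted p = 0.694).

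Cd52 encodes a small glycosylphosphatidylinositol-anchored surface glycoprotein of lymphocytes (gene 23833, chromosome 4, 134093538 to 134095073). It was at 843, 632, 762 and 717 CPM in NMU mice 1 to 4 and 242, 247, 218 and 179.6 CPM in PBS mice 5 to 8. The lowest NMU library was above 2 times the highest PBS library (log2 difference 1.74, SE 0.14, edgeR adjusted p = 0.00156). Stx11, a syntaxin needed for the release of cytotoxic granules (gene 74732, chromosome 10, 12938217 to 12964498), was at 357, 264, 377 and 315 CPM in NMU mice 1 to 4 and 110.2, 107, 85.8 and 111 CPM in PBS mice 5 to 8 (log2 1.67, SE 0.15, edgeR adjusted p = 0.00156). Serpinb6a, a cytosolic serine protease inhibitor (gene 20719, chromosome 13, 33917918 to 34002794), was at 169, 97.9, 145 and 119.8 CPM in NMU mice 1 to 4 and 23.2, 26.2, 32.2 and 29.4 CPM in PBS mice 5 to 8 (log2 2.26, SE 0.21, edgeR adjusted p = 0.00156). Serpinb6a belongs to a family of close copies, and its value is uncertain where the counting could split their reads. Dusp4, a nuclear phosphatase that inactivates ERK-type MAP kinases (gene 319520, chromosome 8, 34807610 to 34819894), was at 169, 175, 222 and 174 CPM in NMU mice 1 to 4 and 65.6, 60.3, 54.5 and 51.6 CPM in PBS mice 5 to 8 (log2 1.67, SE 0.15, edgeR adjusted p = 0.00156). Among the NMU libraries Serpinb6a ranged from 97.9 CPM in mouse 2 to 169 CPM in mouse 1, and Dusp4 was highest in mouse 3. Lsp1, an F-actin binding protein of leukocytes (gene 16985, chromosome 7, 142458223 to 142494868), changed by less than 2-fold, with little spread among the NMU libraries. It was at 1004, 989.9, 993 and 1058 CPM in NMU mice 1 to 4 and 547, 585, 508 and 429 CPM in PBS mice 5 to 8. The SD was 32.0 CPM around 1011 CPM with NMU and 66.8 CPM around 517 CPM with PBS (log2 0.97, SE 0.12, edgeR adjusted p = 0.00767).

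The 2 lower genes of the 10 were Vps37b and Usp2. Vps37b encodes a subunit of ESCRT-I, the complex that sorts ubiquitinated membrane proteins to lysosomes (gene 330192, chromosome 5, 124004641 to 124032260). It was at 2978, 3193, 2657 and 2419.8 CPM in NMU mice 1 to 4 and 5872, 5807, 5818 and 6727 CPM in PBS mice 5 to 8 (log2 difference -1.11, SE 0.11, edgeR adjusted p = 0.00171). Usp2, a deubiquitinase whose RNA oscillates with the circadian clock (gene 53376, chromosome 9, 44067021 to 44095627), was at 28.6, 41.7, 45.2 and 47.9 CPM in NMU mice 1 to 4 and 137, 116, 119.6 and 144 CPM in PBS mice 5 to 8 (log2 -1.66, SE 0.20, edgeR adjusted p = 0.00664). In both genes all NMU libraries lay below all PBS libraries. Eprs, the glutamyl-prolyl tRNA synthetase, came next, with 1066, 934, 892 and 1137 CPM in NMU mice 1 to 4 and 2081, 1905, 1759 and 2429 CPM in PBS mice 5 to 8 (log2 -1.02, SE 0.13, edgeR adjusted p = 0.0112), and passed in 6 of 8 fits, not in those without NMU mouse 3 or PBS mouse 5 (adjusted p 0.018 to 0.0581 over the 8 fits).

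**Figure D2:**
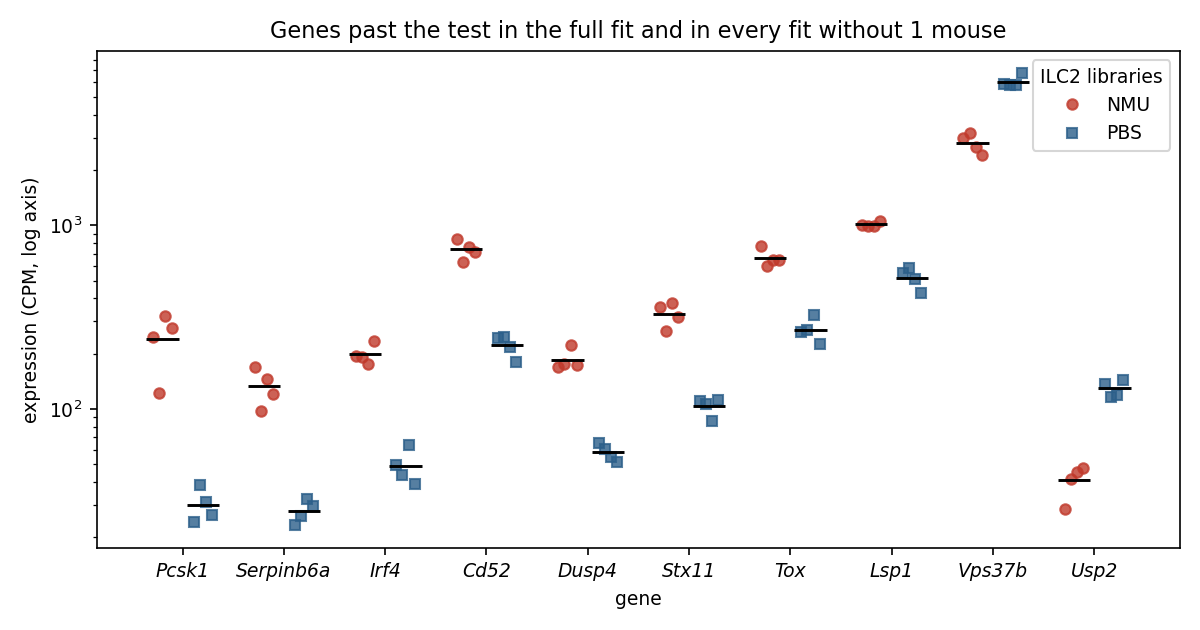
Expression (CPM, log axis) of the 10 genes that passed the test in the full fit and in each fit without 1 mouse, in 4 NMU libraries (red circles) and 4 PBS libraries (blue squares), with the group mean as a black bar. For Pcsk1 the NMU libraries run from 122 to 322 CPM and the PBS libraries from 24.1 to 38.3 CPM, and no gene shown has overlapping groups.

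Several receptors and ligands by which lymphocytes exchange signals with other cells rose with NMU. In the TNF superfamily list, 3 of 22 tested members rose and none fell, where 0.402% of all genes rose. A positive difference was seen in 16 (median 0.51 on the log2 scale, beside 47.7% positive over all genes). The lists used here and below were drawn up with earlier results of these data known. Tnfrsf4 encodes OX40, a costimulatory receptor, and was at 94.8, 66.0, 77.4 and 59.7 CPM in NMU mice 1 to 4 and 18.2, 15.6, 21.0 and 7.61 CPM in PBS mice 5 to 8 (log2 difference 2.26, SE 0.33, edgeR adjusted p = 0.0187; 4 of 8, adjusted p 0.0302 to 0.0623). Its ligand gene Tnfsf4 was at 86.9, 73.3, 57.4 and 73.7 CPM in NMU mice 1 to 4 and 17.9, 26.8, 15.97 and 9.87 CPM in PBS mice 5 to 8 (log2 2.04, SE 0.31, edgeR adjusted p = 0.0219; 2 of 8). For both receptor and ligand the lowest NMU library was above the highest PBS library by a factor of more than 2. Tnfsf10, the gene of the death ligand TRAIL, was at 71.9, 59.5, 69.9 and 59.2 CPM in NMU mice 1 to 4 and 35.6, 31.6, 27.9 and 23.95 CPM in PBS mice 5 to 8 (log2 1.13, SE 0.21, edgeR adjusted p = 0.044; 0 of 8, adjusted p 0.0691 to 0.151). The 250 bases before the start of Tnfrsf4 in the same table (chr4:156013445-156013694, plus strand, GRCm38.p6), a start that also lies after the first base of the gene's span, are shown as the other promoter among the genes named for consistency with a motif match, an E-box (CACGTG) in capitals, first base 74 before the start.
Tnfrsf4: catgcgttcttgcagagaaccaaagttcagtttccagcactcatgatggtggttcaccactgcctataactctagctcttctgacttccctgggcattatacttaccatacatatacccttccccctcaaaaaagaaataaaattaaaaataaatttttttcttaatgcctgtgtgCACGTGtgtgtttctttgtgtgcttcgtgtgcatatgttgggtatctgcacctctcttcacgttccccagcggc

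Motifs were searched on both strands from 250 bases before to 50 after the start: E-box CACGTG, cAMP response element TGACGTCA, AP-1 TGANTCA, RBPJ GTGGGAA, E2F TTTNGCGC, heat shock element GAANNTTC and D-box TTATGTAA. Of the 16 genes named as consistently higher 11 had a promoter in the RefSeq table, 1 with an E-box (9.09%) and 1 with a cAMP response element (9.09%). Of the 12 named as consistently lower 9 had one, and none of those held any of the 7 motifs. Over all 8558 tested genes with a promoter, 12.2% held the E-box, 3.8% the cAMP response element, 6.06% the AP-1 motif, 6.89% the RBPJ motif, 3.05% the E2F motif, 6.85% the heat shock element and 0.561% the D-box. The motifs are no subset of each other, and a match is a run of letters and not a bound site.

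Among inhibitory and CD28 family receptors, 4 of 20 tested members rose and none fell (median 0.26), where 0.402% of all genes rose. Ctla4, an inhibitory receptor for CD80 and CD86, was at 99.6, 82.2, 255 and 114 CPM in NMU mice 1 to 4 and 20.9, 28.4, 36.1 and 22.1 CPM in PBS mice 5 to 8 (log2 difference 2.36, SE 0.37, edgeR adjusted p = 0.0248; 3 of 8), with NMU mouse 3 the highest. Cd96, a receptor of the nectin-like ligand family, was at 416, 369, 465 and 375 CPM in NMU mice 1 to 4 and 178, 192, 242 and 161 CPM in PBS mice 5 to 8 (log2 1.07, SE 0.15, edgeR adjusted p = 0.0169; 4 of 8). Pdcd1, which encodes the inhibitory receptor PD-1, changed less but evenly, at 2103, 1774, 1851 and 1749 CPM in NMU mice 1 to 4 and 1084, 1181, 1097 and 1307 CPM in PBS mice 5 to 8 (log2 0.68, SE 0.11, edgeR adjusted p = 0.025; 2 of 8). The sort receptor Klrg1 was at 1484, 1318, 1759.7 and 1585 CPM in NMU mice 1 to 4 and 988, 962, 806 and 723 CPM in PBS mice 5 to 8 (log2 0.82, SE 0.14, edgeR adjusted p = 0.03; 2 of 8, adjusted p 0.0365 to 0.125), and since the gate required KLRG1 protein this is a difference within KLRG1+ cells. In the list of ILC2 identity genes Klrg1 was the only member of 23 past the test, and the median was 0.07. Il17rb, the receptor subunit for interleukin 25, did not pass, with 608, 264, 542 and 283 CPM in NMU mice 1 to 4 and 887, 637, 903 and 844 CPM in PBS mice 5 to 8 (edgeR adjusted p = 0.156). Cd200r1, an inhibitory receptor, was at 124.05 ± 21.5 against 171 ± 21.1 CPM without passing (edgeR adjusted p = 0.273). Summed over its 21 members, the inhibitory and CD28 list was at 6259, 5534, 6805 and 5786 CPM in NMU mice 1 to 4 and 4843, 4319, 4467 and 4546 CPM in PBS mice 5 to 8, and the groups did not overlap. This sum includes the 4 genes past the test, so it is no separate support, and the other members were not summed alone.

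Cd83, an immunoglobulin-like protein that keeps class II molecules at the cell surface, was the single member of 28 in the NF-kappaB list that passed. It was at 3345, 3678, 1902 and 3237 CPM in NMU mice 1 to 4 and 1016, 1278, 673 and 439 CPM in PBS mice 5 to 8 (log2 difference 1.84, SE 0.32, edgeR adjusted p = 0.0346; 1 of 8). Map3k8, the kinase that links NF-kappaB signals to ERK, is not in a list and was picked after its values were seen. It was at 894, 896, 581 and 931 CPM in NMU mice 1 to 4 and 356, 371, 372 and 234 CPM in PBS mice 5 to 8 (log2 1.31, SE 0.19, edgeR adjusted p = 0.0201; 3 of 8). Tnfaip3, the deubiquitinase A20 that limits NF-kappaB, had lower values without passing (3117 ± 572 against 4648 ± 634 CPM, edgeR adjusted p = 0.114). The median of the NF-kappaB list was 0.01, with 14 members positive and 14 negative. Over all genes 0.66% passed the test.

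Other genes of receptor signalling moved singly. Rem2, a GTPase of the RGK family that lowers calcium channel currents, was the only one of 38 genes of the Gq, calcium and NFAT list past the test, at 106, 36.3, 110.5 and 106 CPM in NMU mice 1 to 4 and 18.3, 14.2, 12.3 and 3.72 CPM in PBS mice 5 to 8 (log2 2.88, SE 0.50, edgeR adjusted p = 0.0346; 1 of 8), and the list median was -0.00. In the cAMP and RGS list none of 30 members passed and none had groups apart, beside 0.66% and 9.46% of all genes. The MAP kinase feedback list had a negative median (-0.25) that turned to 0.09 with the immunoglobulin share as a covariate, and Dusp4 was its only gene of 17 past the test. Spry2, another feedback inhibitor of ERK signalling, was at 26.3 ± 9.05 against 58.4 ± 12.7 CPM (edgeR adjusted p = 0.124). None of the 6 tested genes in the list of receptors for neuronal signals passed.

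Among transcription factors of immediate responses, 1 gene fell. Junb, an AP-1 subunit, was at 8616, 10109, 8535 and 8032 CPM in NMU mice 1 to 4 and 13654, 14759, 13153 and 15507 CPM in PBS mice 5 to 8 (log2 difference -0.69, SE 0.10, edgeR adjusted p = 0.0169; 4 of 8, adjusted p 0.0113 to 0.0629). It was the only one of 15 AP-1 factors past the test, with 5 positive and 10 negative differences and a median of -0.29. Over all genes 0.259% fell. None of the 24 immediate early genes passed. In 5 of them (20.8%) the libraries did not overlap with NMU lower, where 5.09% of all genes did, and the median was -0.40. Nr4a1, a nuclear receptor induced within minutes of stimulation, was at 3685, 5030.2, 3653 and 5352 CPM in NMU mice 1 to 4 and 5830.2, 7452, 9712 and 8422 CPM in PBS mice 5 to 8 (edgeR adjusted p = 0.0793). Nr4a3, its relative, was at 41.4 ± 4.51 against 81.4 ± 19.3 CPM (edgeR adjusted p = 0.0793). The summed immediate early list overlapped between groups, at 19310.0, 22820.0, 19050.0 and 27250.0 CPM in NMU mice 1 to 4 and 23030.0, 28090.0, 33280.0 and 29010.0 CPM in PBS mice 5 to 8.

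In the Notch pathway, the nuclear mediator and a target moved in opposite directions. Rbpj, the DNA-binding partner of the Notch intracellular domain, was at 149.8, 159.6, 238 and 239 CPM in NMU mice 1 to 4 and 82.0, 80.9, 78.3 and 91.4 CPM in PBS mice 5 to 8 (log2 difference 1.24, SE 0.19, edgeR adjusted p = 0.0207; 2 of 8). Hes1, a repressor that Notch signals induce, was at 539.9, 1181, 625 and 865 CPM in NMU mice 1 to 4 and 1840.1, 1977, 1817 and 2092 CPM in PBS mice 5 to 8 (log2 -1.27, SE 0.22, edgeR adjusted p = 0.0344; 2 of 8, adjusted p 0.0102 to 0.119). The other 17 tested genes of the list did not pass, where 0.66% of all genes passed, and the median was -0.13. For both genes every NMU library lay on one side of every PBS library.

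Of 23 tested clock genes, 2 fell and none rose, where 0.259% of all genes fell. Beside Usp2, Nr1d2 (REV-ERBβ), a repressor of the clock loop, was at 88.5, 117, 109 and 96.9 CPM in NMU mice 1 to 4 and 202, 176, 214 and 229 CPM in PBS mice 5 to 8 (log2 -0.996, SE 0.15, edgeR adjusted p = 0.0195; 3 of 8). Bhlhe40, which also acts in cytokine expression, was higher in each NMU mouse without passing (2965 ± 250.2 against 2202 ± 151 CPM, edgeR adjusted p = 0.103). The list median was -0.47, and -0.05 with the immunoglobulin share as a covariate. The time of day at which mice were killed is not given in the labels.

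**Figure D3:**
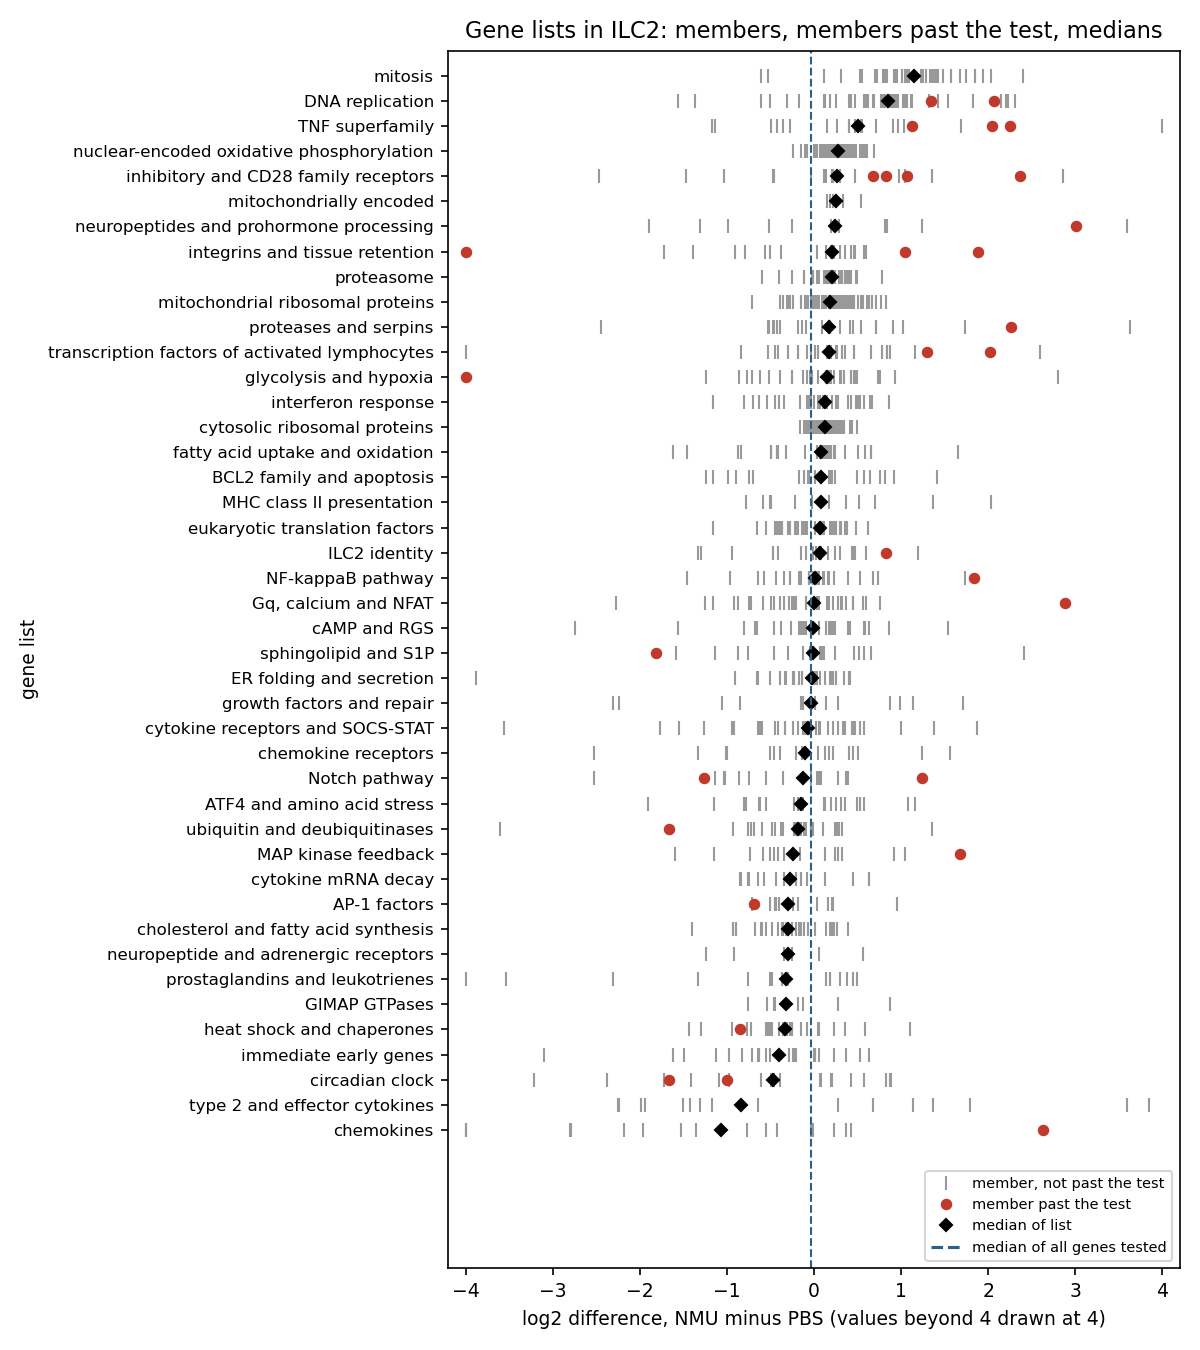
Log2 difference between NMU and PBS (horizontal axis; values beyond 4 in either direction drawn at 4) of the members of each functional gene list (vertical axis), with members past the test as red circles, the other tested members as grey ticks, the list median as a black diamond and the median of all genes (-0.03) as a dashed line. The medians of the mitosis list (1.15) and the DNA replication list (0.85) are the highest, and those of the chemokine list (-1.06) and the type 2 and effector cytokine list (-0.84) the lowest, with 2 members past the test in DNA replication, 1 in chemokines and none in mitosis or the cytokines.

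None of the 17 tested type 2 and effector cytokine genes passed. Areg, which encodes amphiregulin, was at 483, 362, 634 and 768 CPM in NMU mice 1 to 4 and 214, 218, 333 and 257 CPM in PBS mice 5 to 8 and just missed the threshold (log2 difference 1.14, SE 0.23, edgeR adjusted p = 0.0679). Of the 8 fits only the one without NMU mouse 2 called it (0.0365 to 0.207 over the 8). Il5 was at 1792, 1922, 1703 and 1378 CPM in NMU mice 1 to 4 and 1051, 1359, 1059.7 and 788 CPM in PBS mice 5 to 8 (log2 0.67, SE 0.17, edgeR adjusted p = 0.113). Areg and Il5 were thus higher in each NMU mouse than in any PBS mouse. Il13 was at 122.7, 174, 185 and 161 CPM in NMU mice 1 to 4 and 159.6, 161, 534 and 292 CPM in PBS mice 5 to 8 (log2 -0.84, SE 0.36, edgeR adjusted p = 0.367), with overlapping groups and PBS mouse 7 the highest. Lif, a cytokine of the interleukin 6 family, was at 14.8 ± 6.10 against 69.6 ± 46.4 CPM (edgeR adjusted p = 0.0874). In all, 4 of the 17 (23.5%) had groups apart with NMU higher and 4 (23.5%) with NMU lower, beside 4.37% and 5.09% of all genes. Summed over the list, the values were 2904, 2855, 3072 and 2898 CPM in NMU mice 1 to 4 and 2099, 2345, 2863 and 2284 CPM in PBS mice 5 to 8. The groups overlapped there, since NMU mouse 2 was just below PBS mouse 7.

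Neuropeptide precursors are the substrates of convertases such as Pcsk1. Of the 12 tested genes of the neuropeptide and prohormone list, Pcsk1 was the only one past the test, beside 0.66% of all genes. Penk, the proenkephalin gene, was at 67.0, 81.1, 108 and 157 CPM in NMU mice 1 to 4 and 23.99, 1.89, 1.66 and 6.56 CPM in PBS mice 5 to 8 and did not pass (log2 difference 3.60, SE 0.78, edgeR adjusted p = 0.0807), with PBS mouse 5 well above the other PBS mice. Calca, the gene of calcitonin and the neuropeptide CGRP, was at 301, 157.5, 234 and 151 CPM in NMU mice 1 to 4 and 491, 378, 518 and 703 CPM in PBS mice 5 to 8 (log2 difference -1.31, SE 0.25, edgeR adjusted p = 0.0532). Calca thus had lower values and Penk higher values in each NMU library than in any PBS library. Calca passed only in the fit without NMU mouse 1 and Penk only in the fit without PBS mouse 5.

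Genes of cell division had higher values with NMU, and few passed. Of 47 tested DNA replication genes, 2 rose and none fell, where 0.402% of all genes rose. A positive difference was seen in 41 (median 0.85, with 0.69 to 1.11 over the alternatives). Groups did not overlap in 13 of them with NMU higher (27.7%, beside 4.37% of all genes). Mcm5, a subunit of the replicative helicase, was at 71.1, 129, 109 and 124.6 CPM in NMU mice 1 to 4 and 41.7, 46.2, 36.6 and 46.8 CPM in PBS mice 5 to 8 (log2 difference 1.34, SE 0.22, edgeR adjusted p = 0.0275; 1 of 8). Asf1b, a histone chaperone of replicating cells, was at 44.5, 90.9, 95.5 and 127 CPM in NMU mice 1 to 4 and 15.9, 37.0, 16.8 and 15.6 CPM in PBS mice 5 to 8 (log2 2.07, SE 0.39, edgeR adjusted p = 0.0456; 2 of 8). Cdt1, the licensing factor, went the other way without passing (55.3 ± 6.96 against 84.4 ± 22.2 CPM, edgeR adjusted p = 0.264). Tk1 and Rrm2, enzymes of nucleotide supply in S phase chosen after their values were seen, were at 23.5 ± 3.41 against 5.06 ± 4.36 CPM and 96.0 ± 29.0 against 38.5 ± 17.2 CPM (edgeR adjusted p = 0.176 and 0.133).

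Of 39 tested mitosis genes none passed, 37 were positive and the median was 1.15. The groups were apart with NMU higher in only 2 (5.1%), near the 4.37% of all genes. Mad2l1, a spindle checkpoint protein, was one, at 23.5, 47.6, 44.2 and 43.6 CPM in NMU mice 1 to 4 and 19.5, 17.5, 13.4 and 16.4 CPM in PBS mice 5 to 8 (edgeR adjusted p = 0.106). Racgap1, a protein of the cytokinesis machinery, was the other (47.2 ± 5.19 against 21.2 ± 10.5 CPM, edgeR adjusted p = 0.2). NMU mouse 1 had the lowest value of its group for Mad2l1 and the highest for Racgap1. Summed mitosis expression was 456, 1204, 1070.0 and 1340.0 CPM in NMU mice 1 to 4 and 389.8, 794, 425 and 527 CPM in PBS mice 5 to 8. For DNA replication the sums were 1630.0, 2871, 2455 and 2913 CPM in NMU mice 1 to 4 and 1325, 1856, 1351 and 1507 CPM in PBS mice 5 to 8. NMU mouse 1 was below PBS mouse 6 in both lists, and without it the medians were 1.43 and 1.01.

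**Figure D4:**
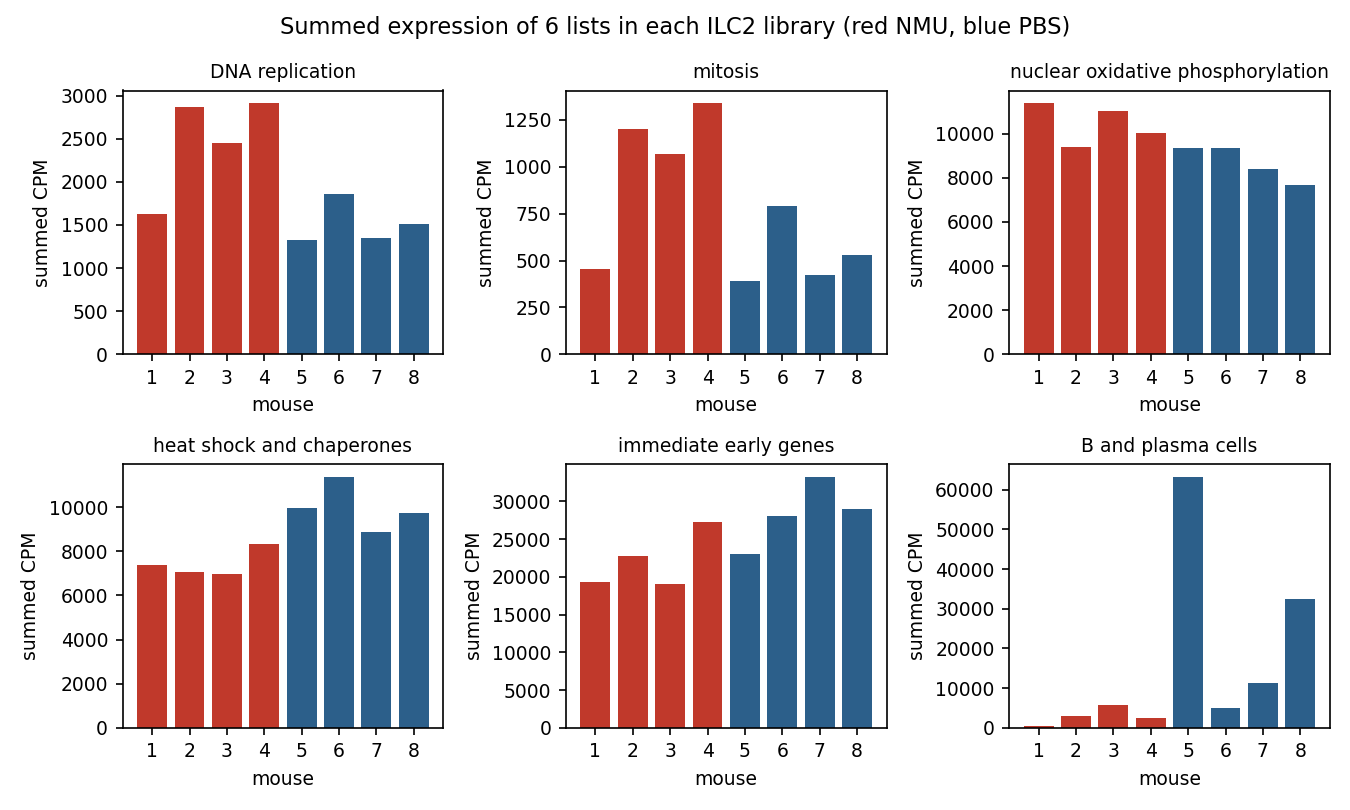
Summed expression (CPM, vertical axes from 0) of 6 gene lists in each ILC2 library, mice 1 to 4 with NMU in red and mice 5 to 8 with PBS in blue. Mitosis runs from 456 to 1340.0 CPM with NMU and from 389.8 to 794 CPM with PBS, heat shock genes and chaperones are lower in each NMU library than in any PBS library, and the B and plasma cell markers reach 63310.0 CPM in PBS mouse 5.

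In lists of energy and protein metabolism most genes had small positive differences, and no listed gene passed the test. Of 77 nuclear genes of oxidative phosphorylation 72 had a positive difference (93.5%, beside 47.7% of all genes; median 0.27). In 9 of them (11.7%) the groups were apart with NMU higher, beside 4.37% of all genes. Atp5c1, a subunit of ATP synthase, was at 472, 397, 476 and 460.4 CPM in NMU mice 1 to 4 and 316, 311, 327 and 250.2 CPM in PBS mice 5 to 8 (edgeR adjusted p = 0.0793). Ndufv2, a subunit of complex I, was at 119 ± 10.9 against 78.2 ± 5.74 CPM (edgeR adjusted p = 0.104). All 8 tested protein-coding genes of the mitochondrial genome were positive (median 0.25). Mitochondrial ribosomal RNA took 0.736 to 0.984% of counts with NMU and 0.363 to 0.709% with PBS, and its part in these differences was not tested. Sdhaf1, an assembly factor of complex II outside the list and chosen after its values were seen, did pass (97.2 ± 9.41 against 53.4 ± 5.20 CPM, log2 0.86, SE 0.16, edgeR adjusted p = 0.0456; 0 of 8).

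Of 37 proteasome genes 29 were positive (median 0.20), and 8 (21.6%, beside 4.37% of all genes) had groups apart with NMU higher. Psma2, a subunit of the core particle, was at 266, 287, 302 and 279.9 CPM in NMU mice 1 to 4 and 236, 175, 215 and 189 CPM in PBS mice 5 to 8 (edgeR adjusted p = 0.139). Mitochondrial ribosomal proteins also had mostly positive differences (57 of 77, median 0.19). Cytosolic ribosomal proteins had 66 of 80 positive and a median of 0.12, which became -0.04 with the immunoglobulin share as a covariate. None of these lists had a member past the test, and in most of their genes the libraries of the groups overlapped.

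In the heat shock and lipid synthesis lists most differences were negative, and 1 gene passed. Dnaja1, a cochaperone of HSP70, fell, at 597, 618.2, 381 and 527 CPM in NMU mice 1 to 4 and 1051, 993, 809.6 and 973 CPM in PBS mice 5 to 8 (log2 difference -0.85, SE 0.16, edgeR adjusted p = 0.047; 0 of 8, adjusted p 0.0634 to 0.152). It was the only one of 26 heat shock genes and chaperones past the test, beside 0.66% of all genes, and 20 were negative (median -0.33). The groups were apart with NMU lower in 6 of them (23.1%, beside 5.09% of all genes). Summed expression of the list was 7395, 7047, 6981 and 8348 CPM in NMU mice 1 to 4 and 9948, 11380.0, 8849 and 9735 CPM in PBS mice 5 to 8, with no overlap. Ahsa1, an activator of HSP90, went against the list without passing (142 ± 19.8 against 94.9 ± 13.5 CPM, edgeR adjusted p = 0.155). In cholesterol and fatty acid synthesis 24 of 31 genes were negative and none passed (median -0.30). Mvk, which makes phosphomevalonate, was at 14.99 ± 5.45 against 39.7 ± 8.62 CPM (edgeR adjusted p = 0.112). Cyp51, a demethylase of the sterol pathway, was at 382 ± 85.0 against 581 ± 58.3 CPM (edgeR adjusted p = 0.141).

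Of the lists of RNA decay, ubiquitin enzymes and the amino acid response, Usp2 was the only gene past the test. Among cytokine mRNA decay genes 13 of 17 were negative (median -0.28), none past the test. Arid5a, which stabilises interleukin 6 RNA, was at 189 ± 31.3 against 296 ± 45.3 CPM (edgeR adjusted p = 0.113). In the list of ubiquitin enzymes 24 of 32 were negative and Usp2 fell. Atf4, the factor of the amino acid response, was at 87.1, 112, 128 and 157 CPM in NMU mice 1 to 4 and 191, 177, 217 and 246 CPM in PBS mice 5 to 8 (edgeR adjusted p = 0.112), and none of the 25 genes of its list passed. Eprs, described above, is a tRNA synthetase outside that list.

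Further genes that rose encode proteins of several kinds. Vim, the intermediate filament vimentin, was at 194, 176, 202 and 177 CPM in NMU mice 1 to 4 and 87.7, 107, 113 and 85.3 CPM in PBS mice 5 to 8 (log2 difference 0.93, SE 0.14, edgeR adjusted p = 0.0246; 3 of 8). Arl6ip1, which shapes tubules of the endoplasmic reticulum, was at 668, 700.5, 657 and 632 CPM in NMU mice 1 to 4 and 399, 416, 405 and 419.6 CPM in PBS mice 5 to 8 (log2 0.70, SE 0.10, edgeR adjusted p = 0.0169; 3 of 8), with PBS libraries that differed little from each other. H2-T22, a non-classical class I molecule, averaged 255 ± 17.4 against 131 ± 19.0 CPM (log2 0.96, SE 0.14, edgeR adjusted p = 0.0195; 3 of 8); it has near-identical relatives among which reads could be split. Sytl2, a Rab27 effector of secretory vesicles, was at 75.1, 64.0, 84.3 and 71.2 CPM in NMU mice 1 to 4 and 27.3, 15.6, 26.7 and 21.6 CPM in PBS mice 5 to 8 (log2 1.69, SE 0.24, edgeR adjusted p = 0.0169; 4 of 8). Tent5a, a poly(A) polymerase that stabilises mRNAs of secreted proteins, was at 586, 402, 608 and 552 CPM in NMU mice 1 to 4 and 271, 259, 254 and 249.02 CPM in PBS mice 5 to 8 (log2 1.06, SE 0.14, edgeR adjusted p = 0.0164; 3 of 8). Of the integrin and tissue retention list, Itgb2, the β2 integrin chain, rose (314 ± 30.0 against 152 ± 37.6 CPM, log2 1.05, SE 0.18, edgeR adjusted p = 0.0382; 0 of 8), as did Epcam, an adhesion protein (44.2 ± 12.9 against 11.99 ± 2.85 CPM, log2 1.88, SE 0.32, edgeR adjusted p = 0.0308; 2 of 8), out of 23 tested. Ly6c2, another member, fell, with 1 count over the NMU libraries and 710 over the PBS libraries (edgeR adjusted p = 0.0398). Over all genes 0.402% rose and 0.259% fell.

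The following genes also rose and were chosen after their values were seen. Ptprc, which encodes the leukocyte phosphatase CD45 of the sort gate, was at 1949.5, 2214, 2093 and 2009.7 CPM in NMU mice 1 to 4 and 1427, 1358, 1486 and 1431 CPM in PBS mice 5 to 8 (log2 0.54, SE 0.09, edgeR adjusted p = 0.0308; 1 of 8). Pfn1, profilin, averaged 2162 ± 157.9 against 1290.3 ± 238 CPM (log2 0.74, SE 0.14, edgeR adjusted p = 0.0462; 0 of 8). Wdr1 and Gmfg, factors of actin filament turnover, were at 702 ± 77.1 against 378 ± 69.3 CPM and 104 ± 12.04 against 52.4 ± 2.44 CPM (edgeR adjusted p = 0.0308 and 0.025). Anxa2 and S100a10, which bind each other at membranes, were at 199.9 ± 20.5 against 56.1 ± 27.6 CPM and 204 ± 11.8 against 115 ± 15.4 CPM (edgeR adjusted p = 0.0426 and 0.0307). Lgals1, the lectin galectin-1, was at 242, 283, 497 and 473 CPM in NMU mice 1 to 4 and 109, 175, 93.9 and 65.1 CPM in PBS mice 5 to 8 (log2 1.76, SE 0.33, edgeR adjusted p = 0.0448; 2 of 8). Spn, the sialomucin CD43, averaged 85.2 ± 19.2 against 34.9 ± 8.03 CPM (log2 1.29, SE 0.24, edgeR adjusted p = 0.0468; 0 of 8). With Lsp1 and Vim these make a set of actin, filament and surface genes, which was assembled after the fact and was not tested as a group.

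Further genes fell. Cdk11b, a kinase of transcription and splicing, was at 169, 197, 179 and 190.4 CPM in NMU mice 1 to 4 and 409, 386, 289 and 373 CPM in PBS mice 5 to 8 (log2 difference -0.98, SE 0.14, edgeR adjusted p = 0.0169; 4 of 8). Tfip11, a protein of spliceosome disassembly, was at 293, 330.4, 248.8 and 310.0 CPM in NMU mice 1 to 4 and 507, 563, 506 and 563 CPM in PBS mice 5 to 8 (log2 -0.86, SE 0.12, edgeR adjusted p = 0.0169; 3 of 8). Abt1, a basal transcription activator, was at 112, 89.2, 83.2 and 92.2 CPM in NMU mice 1 to 4 and 185, 172, 158.3 and 173 CPM in PBS mice 5 to 8 (log2 -0.87, SE 0.14, edgeR adjusted p = 0.03; 1 of 8). In these 3 genes the spread within each group was small beside the gap between them. Srrm2, a scaffold of nuclear speckles chosen after its values were seen, also fell (354 ± 33.2 against 535 ± 12.5 CPM, log2 -0.59, SE 0.11, edgeR adjusted p = 0.044; 0 of 8). In lipid metabolism, Acer2, an alkaline ceramidase, fell from 103, 141, 120.2 and 178 CPM in PBS mice to 30.6, 58.4, 23.9 and 41.1 CPM in NMU mice (log2 -1.82, SE 0.29, edgeR adjusted p = 0.0275; 1 of 8), the only gene of 22 in the sphingolipid list past the test. Pfkfb4, a regulator of glycolysis, had 1 count over the 4 NMU libraries and 536 over the 4 PBS libraries (edgeR adjusted p = 0.03; 2 of 8), the only one of 36 glycolysis and hypoxia genes past the test. Over all genes 0.259% fell.

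Chemokine genes had the lowest median of the functional lists (-1.06), with 14 of 18 negative and 1 past the test, which was higher. Over all genes 0.402% rose. Cxcl3, a chemokine for neutrophils, was at 30.1, 25.1, 33.5 and 16.8 CPM in NMU mice 1 to 4 and 5.06, 6.31, 2.34 and 3.32 CPM in PBS mice 5 to 8 (log2 2.63, SE 0.47, edgeR adjusted p = 0.0404; 0 of 8). Ccl1, a CCR8 ligand that ILC2 make, was at 92.6 ± 25.0 against 238 ± 117 CPM (edgeR adjusted p = 0.103). Ccl3, a chemokine that myeloid cells also make, was at 0.793 ± 1.08 against 32.0 ± 30.4 CPM (edgeR adjusted p = 0.113). Ccr7, the receptor for migration to lymph nodes, was at 269.5, 214, 138 and 193 CPM in NMU mice 1 to 4 and 101, 98.7, 52.1 and 92.6 CPM in PBS mice 5 to 8 (edgeR adjusted p = 0.0658), higher in each NMU mouse without passing. Macrophage, monocyte and dendritic cell markers were also mostly lower with NMU, as given next, and their part in the chemokine values was not tested.

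Markers of other cells differed between the groups. Summed B and plasma cell markers were at 388, 2981, 5702 and 2580.0 CPM in NMU mice 1 to 4 and 63310.0, 5018, 11260.0 and 32400.0 CPM in PBS mice 5 to 8. Of the 13 tested of these 21 markers none passed and 12 were negative. Pax5 had no count in any library, while Cd79a had 188 counts with NMU and 986 with PBS. Summed markers of macrophages, monocytes and dendritic cells were at 502, 884, 1058 and 356 CPM in NMU mice 1 to 4 and 2899, 2078, 507 and 1256 CPM in PBS mice 5 to 8. Of 20 tested, 18 were negative and 2 fell: Plek, a protein kinase C substrate of platelets and myeloid cells (7.01 ± 2.5036 against 67.9 ± 52.7 CPM, edgeR adjusted p = 0.044; 1 of 8), and Ly6c2, a monocyte antigen with 1 count over the NMU libraries and 710 over the PBS libraries (edgeR adjusted p = 0.0398; 0 of 8). Over all genes 0.259% fell. Mertk, which marks tissue macrophages, had no count, but other macrophage markers did. C1qa had 650 counts with NMU and 2279 with PBS, and Csf1r 263 and 1735. Fibroblast, muscle and endothelial markers ran from 31.4 to 122 CPM with NMU and from 99.5 to 588 CPM with PBS, all 13 tested being negative and none past the test. T cell markers (707 to 1032 against 569 to 836 CPM, 12 tested) and markers of NK cells, ILC1 and ILC3 (533 to 1975 against 523 to 943 CPM, 13 tested) overlapped, and none passed. Epithelial markers overlapped as well (43.9 to 111 against 40.0 to 112 CPM), Epcam being the only one of 9 that passed. Granulocyte and mast cell markers were at 14.0 CPM or less with NMU and reached 416 CPM in PBS mouse 8. In PBS mice 5 to 7 they were at 22.9, 8.12 and 0.292 CPM, so the groups overlapped. Ly6g, Epx, Siglecf and Fcer1a had 0 counts in all 8 libraries. S100a8 had 2 counts with NMU and 1869 with PBS, with no count in 5 of the 8 libraries. Retnlg had 23 and 1824, with no count in 4. Cd200r3 went the other way, with 183 and 51 counts. Enteric neuron and glia markers overlapped (70.8 to 233 against 153 to 224 CPM), with Elavl4 and Chat at 0 counts. The part of these cells in the differences named above was not tested beyond the covariate fit.

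The remaining lists had no member past the test: interferon response (36 tested, median 0.12), BCL2 family and apoptosis (26, 0.08), cytokine receptors and SOCS-STAT (39, -0.07), ER folding and secretion (32, -0.03), fatty acid uptake and oxidation (30, 0.09), prostaglandins and leukotrienes (17, -0.32), chemokine receptors (19, -0.10), growth factors and repair (15, -0.04), MHC class II presentation (12, 0.07), eukaryotic translation factors (48, 0.07) and GIMAP GTPases (8, -0.32). Among proteases and serpins Serpinb6a was the only one of 24 past the test, beside 0.66% of all genes. Single genes of these lists with groups apart included Bcl2l1, the survival factor BCL-XL (301 ± 47.8 against 158.5 ± 37.5 CPM, edgeR adjusted p = 0.0765), and Il4ra, the interleukin 4 receptor chain (235 ± 62.0 against 445 ± 83.0 CPM, edgeR adjusted p = 0.0793). Neither passed.

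Whether these differences were larger than in CD4 T cells of the same mice was tested with an interaction term over all 24 libraries, in which the NMU effect in ILC2 was set against the mean effect in NMUR1+ and NMUR1- CD4 T cells. Of 13509 genes 202 (1.5%) differed. With the mouse as a block, which these data allow because each mouse gave all 3 populations, 137 did. Cd52 had a log2 effect of 1.76 in ILC2 and 0.22 in the T cells, a difference of 1.54 (SE 0.22, edgeR adjusted p = 0.000693). For Irf4 the effect was 2.04 in ILC2 and -0.07 in the T cells, a difference of 2.12 (SE 0.23, edgeR adjusted p = 1.9e-05). Stx11 stood at 1.69 in ILC2 and 0.02 in the T cells, a difference of 1.66 (SE 0.20, edgeR adjusted p = 0.000103). Each of these 3 genes thus differed between ILC2 and T cells by more than its spread. The same held for Tnfrsf4 (2.28 in ILC2 and 0.17 in the T cells, a difference of 2.11 (SE 0.27, edgeR adjusted p = 0.000176)), Ctla4 (2.38 in ILC2 and 0.09 in the T cells, a difference of 2.29 (SE 0.32, edgeR adjusted p = 0.000543)), Serpinb6a (2.28 in ILC2 and 0.16 in the T cells, a difference of 2.13 (SE 0.37, edgeR adjusted p = 0.00436)), Dusp4 (1.69 in ILC2 and -0.23 in the T cells, a difference of 1.92 (SE 0.33, edgeR adjusted p = 0.00421)), Lsp1 (0.99 in ILC2 and 0.10 in the T cells, a difference of 0.88 (SE 0.15, edgeR adjusted p = 0.0033)) and Itgb2 (1.07 in ILC2 and 0.10 in the T cells, a difference of 0.97 (SE 0.17, edgeR adjusted p = 0.00421)). It held with the block as well. These genes were named for their difference in the same ILC2 libraries, which favours a difference in this test.

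The other 4 of the 10 did not pass this test. Pcsk1 had an effect of 3.03 in ILC2 and 0.38 in the T cells, a difference of 2.65 (SE 0.91, edgeR adjusted p = 0.149). For Tox it was 1.32 in ILC2 and 0.21 in the T cells, a difference of 1.11 (SE 0.43, edgeR adjusted p = 0.202). Vps37b (-1.09 in ILC2 and -0.42 in the T cells, a difference of -0.66 (SE 0.33, edgeR adjusted p = 0.353)) and Usp2 (-1.65 in ILC2 and -0.35 in the T cells, a difference of -1.29 (SE 0.48, edgeR adjusted p = 0.175)) gave the same sign in both. Junb was at -0.67 in ILC2 and -0.41 in the T cells, a difference of -0.26 (SE 0.45, edgeR adjusted p = 0.872) and Hes1 at -1.25 in ILC2 and -0.93 in the T cells, a difference of -0.32 (SE 0.39, edgeR adjusted p = 0.782), so neither passed. For Eprs (-1.001 in ILC2 and -0.12 in the T cells, a difference of -0.88 (SE 0.19, edgeR adjusted p = 0.0205)), Cdk11b (-0.97 in ILC2 and -0.11 in the T cells, a difference of -0.85 (SE 0.20, edgeR adjusted p = 0.0289)) and Abt1 (-0.85 in ILC2 and 0.02 in the T cells, a difference of -0.87 (SE 0.17, edgeR adjusted p = 0.0125)) the decrease was larger in ILC2. H2-T22 (0.98 in ILC2 and 0.25 in the T cells, a difference of 0.74 (SE 0.17, edgeR adjusted p = 0.0313)) passed here but had an adjusted p of 0.0528 with the mouse as a block. Penk, which did not pass within ILC2, gave 3.60 in ILC2 and 0.40 in the T cells, a difference of 3.20 (SE 1.20, edgeR adjusted p = 0.193), and an adjusted p of 0.0279 with the block.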

How the data were processed

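RNA of sorted colonic ILC2 was sequenced from 4 NMU and 4 PBS mice, 1 library per mouse. Per the labels' protocols the kits were RNeasy Micro for RNA and NEBNext Single Cell/Low Input for libraries, the latter with cDNA amplification and with no mark of strand or molecule. Per the submitters' processing notes the authors aligned reads to mm10 with STAR 2.5.3. Which program, annotation and strand setting gave the counts is not stated in the labels or headers used here. The values are the authors' deposited whole-number gene counts, not normalized, for 27179 gene identifiers and 24 columns, and 92.99% of identifiers had a symbol in RefSeq (GRCm38.p6, the assembly behind mm10). The unmatched ones, with 0.986% of counts, were tested but not named. Antisense and overlapping genes, near-identical copies and immunoglobulin segments are uncertain where reads could be split or mixed.

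Genes were kept by filterByExpr (minimum count 10), libraries scaled by TMM (factors 0.9458 to 1.033) and tested with robust quasi-likelihood fits in edgeR 4.0.16 (R 4.3.3), with Benjamini-Hochberg adjustment over all genes tested and a threshold of 0.05. The comparison with CD4 T cells was an interaction term over all 24 libraries. Alternatives were DESeq2 1.42.0, limma 3.58.1 voom, other scalings and filters, the immunoglobulin share as a covariate, and each mouse left out. Standard errors were taken from the log2 difference and the F statistic. No replicate pair agreed within sampling noise, so each library is 1 replicate. Single values per library were compared by exact permutation tests (70 arrangements). On simulated data for this comparison (10722 genes, 4 and 4 libraries), 13 of 96 genes changed by 1 log2 unit and 48 of 93 changed by 2 were called, with 4 of 10533 unchanged genes. ILC2 and T cell libraries of a mouse are paired because they come from the same animal, with a median correlation of their deviations of 0.09 over 24 same-mouse pairs and -0.026 over 72 others.

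Named genes are Nmur1, Klrg1, Gata3, Areg, Il5 and Il13; up to 12 per direction past the threshold with no overlap and at least 10 CPM, ranked by the number of fits without 1 mouse that they pass and then by p; up to 5 per direction of these with a difference below 1 on the log2 scale and at least 50 CPM; and up to 3 per gene list and direction, or, where none passed, up to 2 as values only. Unnamed and predicted genes were left out. Some genes that the rule selects are not reported here. The members, the gene lists and this rule were chosen with earlier results of these data known, so no list is independent evidence of its direction. Lists are described by counts and medians, with no set test. Promoters (250 bases before to 50 after the start) are from RefSeq.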

Additional observations from a re-analysis of the deposited data

Results flagged for a closer look

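Of 186 groups of 4 libraries (the named genes and the library measures), 12 held a library far from the other 3 by Dixon's criterion, where chance gives about 5%. On the first principal component NMU mouse 1 was at 171.4, far from the other NMU libraries, and 63 genes passed the test without it. Dusp4 was at 221.7 CPM in NMU mouse 3 and Vps37b at 6727.0 CPM in PBS mouse 8, each above the rest of its group, and both genes passed the test without that mouse. Map3k8 was low in NMU mouse 3 (581.0 CPM) and in PBS mouse 8 (233.6 CPM). Rem2 was low in NMU mouse 2 at 36.25 CPM, and Mad2l1 in NMU mouse 1 at 23.53 CPM. Single PBS libraries were high for Asf1b (36.98 CPM, mouse 6), Gmfg (56.0 CPM, mouse 7) and Ly6c2 (46.61 CPM, mouse 8). A single count set Pfkfb4 at 0.1158 CPM in NMU mouse 2 and Ly6c2 at 0.07874 CPM in NMU mouse 3, with the other NMU libraries at 0.

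Of 88 genes named above, 28 differed in NMU effect between ILC2 and CD4 T cells (edgeR interaction term, adjusted p below 0.05). Over all 13509 genes the share was 1.5%. Most of the 88 were chosen for their difference in the same ILC2 libraries, which favours a high count. The difference of log2 effects, ILC2 minus T cells, was positive for Cd52 (1.54), Irf4 (2.12), Dusp4 (1.92), Stx11 (1.66), Serpinb6a (2.13), Lsp1 (0.88), Sytl2 (1.48), Tnfrsf4 (2.11), Vim (0.86), Ctla4 (2.29), Wdr1 (0.85), Itgb2 (0.97), Anxa2 (1.79), Lgals1 (1.62), Spn (1.31) and Ccr7 (1.30). It was negative for Eprs (-0.88), Cdk11b (-0.85), Abt1 (-0.87), Srrm2 (-0.51), Plek (-3.10) and Ccl3 (-4.54), and for Pfkfb4 (-8.32) and Ly6c2 (-8.78), whose fitted values depend on the prior count because the NMU libraries of ILC2 held 1 count. For H2-T22 (0.74), Map3k8 (1.20), Epcam (2.39) and Sdhaf1 (0.76) the call was lost with the mouse as a block.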

How the results depend on the processing

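The count of 74 genes past the test stayed within 1.5 times under 6 settings (no filter 89, a mean of at least 10 CPM 92, DESeq2 size factors 72, total counts 82, limma voom 73 and immunoglobulin genes left out 79) and with the non-robust fit (66). DESeq2 called 454 genes and 1 fit of all 24 libraries 1053. With the immunoglobulin share as a covariate 0 passed, and the fit has 1 residual degree of freedom fewer. The cause of these shifts was not tested. Without 1 mouse the count ran from 12 (without NMU mouse 3, PBS mouse 5 or PBS mouse 8) to 63 (without NMU mouse 1). Of the 74 genes 73 were called by DESeq2, 61 by limma voom and 68 in the fit of all 24 libraries. None changed direction in any fit, which with groups fully apart was nearly fixed for the fits without 1 mouse. Of the 35 genes named above that did not pass, DESeq2 called 26, limma voom 1 and the fit of all 24 libraries 17. For these genes the statement that they did not pass depends on the method. The 202 genes that differed between ILC2 and T cells became 120 with a mean of at least 10 CPM, where fewer genes were tested, 109 with limma voom and 137 with the mouse as a replicate block, and ran from 79 (without PBS mouse 5) to 246 (without NMU mouse 2). No paired analysis was possible for NMU against PBS within ILC2 because the treatment groups share no mouse. Nmur1, which did not pass, ran from -0.15 (without NMU mouse 4) to 0.195 (without PBS mouse 5), including -0.072 without PBS mouse 8. At 4 mice per group changes of 1 log2 unit were mostly missed on simulated data.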
